A study of Hordeum vulgare with 12 samples.

Results

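Leaf messenger RNA of 2 barley (Hordeum vulgare) accessions, BCS24 and BCS8, is compared here under drought. The 6 libraries are BCS8 drought 1, 2 and 3 and BCS24 drought 1, 2 and 3, out of 12 in the series. The other 6 are leaf libraries of the same accessions with the treatment label "ck", read here as control, 3 per accession. All 30157 genes of the deposited table were considered, and the 17342 with at least 1 FPKM (sequenced fragments scaled to gene length and library size) in at least 3 of the 12 libraries were tested. BCS8 and BCS24 are named in the labels as strains and nothing more is said of their origin. How drought was imposed, the age of the plants and whether the replicates are separate plants are not given, so each p-value measures the spread between these samples, which may be technical.

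A cereal leaf that loses water makes abscisic acid (ABA), a hormone cut from carotenoids in the plastid. ABA binds soluble receptors that block protein phosphatases of type 2C, and kinases freed from these phosphatases close stomata and switch on protective genes. The leaf also adjusts its starch and sugar pools, its cuticle of wax and cutin, its photosynthetic apparatus and its redox enzymes. Barley accessions differ besides in families that vary between plants of one species, such as intracellular immune receptors with an NB-ARC domain, detoxifying enzymes and receptor kinases.

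Under drought BCS24 held less mRNA than BCS8 for 2 enzymes that cleave carotenoids toward ABA, for 8 of 19 ABA receptors, for 32 of 74 chitin response genes and for 125 of 223 proteins of the cytosolic ribosome. It held more for 27 of 77 NB-ARC and other resistance proteins and for 11 of 35 genes of wax and cutin synthesis. With the rRNA share of each library as a covariate these counts were 1, 0, 4, 49, 11 and 1 in the same order. Over all tested genes 679 were higher and 826 lower in that fit. The rRNA share did not overlap between the accessions under drought, so that fit cannot fully tell it apart from the accession. Of the 17342 genes, 4749 (27.4%) passed an adjusted p of 0.05 in edgeR's quasi-likelihood test with n = 3 per group. BCS24 was higher in 2307 of them (13.3% of tested genes) and lower in 2442 (14.1%). On log2(FPKM + 1) values, limma passed 1671 higher and 2799 lower genes, so the share higher was 37.4% in place of 48.6%. The median log2 difference over all tested genes was −0.02 in the count fit and −0.07 on that scale. RNA of a whole leaf cannot tell fewer cells of a type from less RNA per cell, for these genes and all those below.

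The lower genes were lower by more. Their median log2 fold change (BCS24 minus BCS8) was −1.22, against 0.70 for the higher genes. At least a 2-fold difference was reached by 2201 genes (12.7%), of which 788 were higher (4.54%) and 1413 lower (8.15%). At least 4-fold was reached by 1159 (6.68%), 313 higher (1.8%) and 846 lower (4.88%). The FPKM of the 3 and 3 libraries did not overlap in 6649 genes (38.3%; 2691 or 15.5% higher and 3958 or 22.8% lower), and 4379 of the 4749 genes past the threshold (92.2%) were among these.

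**Figure D1:**
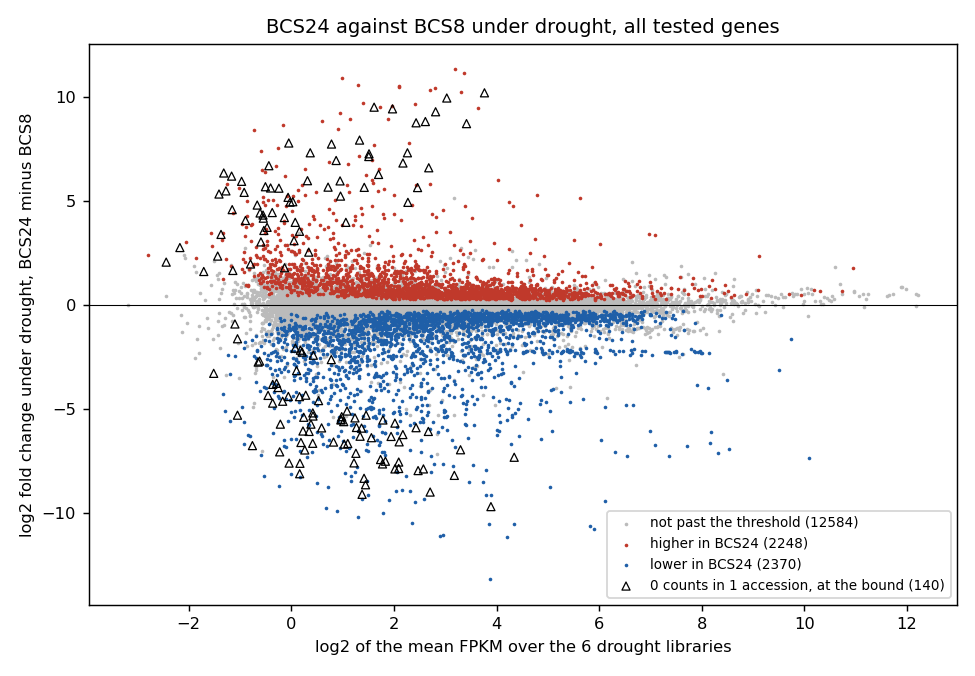
Each point is 1 of the 17342 tested genes, with the log2 of its mean FPKM over the 6 drought libraries across and its log2 fold change under drought (BCS24 minus BCS8) upward. Genes past the threshold are red where BCS24 was higher and blue where it was lower, and triangles mark genes with 0 counts in every drought library of 1 accession, drawn at a bound. More blue points than red ones lie beyond 2 on the log2 axis, as the 846 lower and 313 higher genes at 4-fold show.

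The 6 drought libraries held 50242359 to 61212440 counts. On the first principal component of their log2 values (69.6% of the variance) the BCS8 libraries lay at −110 to −62.9 and the BCS24 libraries at 70.8 to 96.2. On the second component (13.2%) BCS8 drought 3 stood alone at −75.8, while BCS8 drought 1 and 2 were at 15 and 41.4. It was also the lowest of the BCS8 libraries in 600 of the 846 genes that were 4-fold lower in BCS24 (70.9%), against 42.0% of all tested genes. Reads of rRNA genes took 1.64 ± 0.663% (SD, n = 3) of the counts in BCS8 and 0.486 ± 0.248% in BCS24, with BCS24 drought 1 the lowest at 0.202%. The 10 most counted genes took 5.43 ± 0.829% in BCS8 and 8.12 ± 0.586% in BCS24. Neither measure overlapped between the accessions, and an exact 2-sided permutation test gave p = 0.1 for each, the smallest that 3 against 3 libraries allow. For the leaf label, the light-harvesting genes summed to 21589 to 34140 FPKM per BCS8 drought library and 34323 to 56475 per BCS24 one. These sums did not overlap either (exact 2-sided permutation p = 0.1).

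How many genes passed differed with the library left out, up to 5191 without BCS24 drought 2. There were 2036 without BCS24 drought 1, 2567 without BCS8 drought 2 and 3106 without BCS24 drought 3. Leaving out BCS8 drought 3, the library that lay apart, left 4153 (1775 higher and 2378 lower). With the replicate number as a block for the drought libraries 5715 genes passed in the fit of 12 libraries, and 2567 in the 6 drought libraries alone. With the rRNA share of each library as a covariate 1505 passed, and 70 of the 157 genes singled out by rule or by hand no longer did. As that share did not overlap between the accessions under drought, the covariate and the accession cannot be fully told apart. Of the 4749 genes, 4744 had the same direction in all 26 alternatives, and 967 (490 higher and 477 lower) passed in every one. The part of the rRNA share and of the libraries named here in the differences below was not tested.

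The genes named first are the 12 largest differences each way among 666 genes that passed the threshold with a mean of at least 5 FPKM in the higher accession, no overlap of the libraries and a description in the deposited table. Among the 12 lower ones, 4 serve nitrogen uptake, respiration or iron-sulfur cluster assembly. NAR2.3 (HORVU6Hr1G053710), a partner protein that nitrate transporters of the NRT2 family need, stood at 2.3, 13.6 and 3.65 FPKM in BCS8 drought 1, 2 and 3 and at 0.122, 0 and 0.0426 in BCS24. BCS8 drought 2 was the highest library, and the accessions did not overlap, as the rule required. The log2 fold change was −6.73 ± 1.66 (SE, adjusted p = 0.016), and the gene no longer passed without BCS24 drought 3. An ammonium transporter (HORVU5Hr1G118590) had 39.2, 64.6 and 4.82 FPKM in BCS8 and 2.48, 0.381 and 0.503 in BCS24, a log2 fold change of −4.94 ± 1.16 (adjusted p = 0.0132). BCS8 drought 3 was far below the other BCS8 libraries there, yet above each BCS24 library. A ubiquinol oxidase (HORVU2Hr1G101920), the alternative oxidase that passes electrons to oxygen without pumping protons, had 6.71, 12.4 and 1.17 FPKM against 0.175, 0.154 and 0.211 (−5.02 ± 1.16, adjusted p = 0.0124), and did not pass without BCS24 drought 1. An iron-sulfur cluster assembly protein (HORVU1Hr1G089730) had 4.93, 3.77 and 11.3 FPKM in BCS8 and 0 counts in each BCS24 drought library. It was at least 173-fold lower, from 3 counts per library, with an adjusted p of 0.000612.

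Regulators and cell-wall proteins made up most of the other large falls. The heat stress transcription factor Spl7 (HORVU1Hr1G081300) had 13.5, 21.9 and 1.58 FPKM in BCS8 and 0.447, 0.331 and 0.182 in BCS24 (−5.17 ± 0.97, adjusted p = 0.0051). NAC transcription factor 47 (HORVU3Hr1G014140), of a family with many stress regulators, had 14.9, 4.85 and 5.1 FPKM against 0.248, 0.548 and 0 (−4.90 ± 1.22, adjusted p = 0.0166). Its log2 difference in control was 0.16, and it did not pass without BCS24 drought 1. A RING-type E3 ubiquitin transferase (HORVU4Hr1G064070), which marks proteins for breakdown, had 15.1, 8.2 and 1.63 FPKM against 0.156, 0.331 and 0.185 (−5.12 ± 1.03, adjusted p = 0.00688). In the first and last of these genes BCS8 drought 3 was the lowest BCS8 library, as it was in the dirigent genes that follow.

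Dirigent proteins steer the coupling of phenolic radicals into lignans and lignin-like polymers. Genes for 3 of them lie on chromosome 5H between 596724563 and 596784614 (genome build not given in the sources used here). HORVU5Hr1G094700 had 37.7, 67.4 and 3.63 FPKM in BCS8 and 1.21, 0.101 and 0.904 in BCS24 (−5.51 ± 1.32, adjusted p = 0.0141). HORVU5Hr1G094710 (−6.17 ± 1.59) and HORVU5Hr1G094740 (−5.50 ± 1.23) had the same order of libraries, with BCS8 drought 2 highest and BCS8 drought 3 lowest of BCS8. HORVU5Hr1G094710 no longer passed without BCS8 drought 2 or BCS24 drought 3. Reads shared between such neighbouring copies may be split, since how they were counted is not given in the sources used here. A glycosyltransferase (HORVU1Hr1G092650) with 11, 40.2 and 0.918 FPKM against 0.339, 0.0283 and 0.159 (−6.51 ± 1.69, adjusted p = 0.0193) lost its call without BCS8 drought 2, BCS24 drought 1 or BCS24 drought 3.

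By the naming rule the largest rise was in an MLO-like gene (HORVU7Hr1G002390), of the membrane protein family of the barley powdery mildew susceptibility factor MLO. It had 0, 0.0435 and 0.0558 FPKM in BCS8 and 22.1, 44 and 8.87 in BCS24, a log2 fold change of 9.43 ± 0.92 (adjusted p = 8.49e-05), and 10.61 in control. A cytokinin oxidase/dehydrogenase (HORVU1Hr1G057860), which degrades the growth hormone cytokinin, had 1.91, 0.994 and 1.42 FPKM against 65.6, 40.2 and 55.8 (5.28 ± 0.35, adjusted p = 7.55e-06). Each BCS24 library was far above each BCS8 library for both genes, and both passed in every alternative. A glycine–tRNA ligase of chloroplasts and mitochondria (HORVU7Hr1G000550), which charges tRNA for protein synthesis, had 3.4, 2.57 and 2.57 FPKM against 17.2, 16.2 and 16.5 (2.61 ± 0.19, adjusted p = 1.52e-05). Its 3 libraries per accession lay close together.

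Other large rises concerned the plastid and primary metabolism. A chlorophyll a-b binding protein (HORVU2Hr1G036960), which gathers light for the photosystems, had 987, 693 and 1096 FPKM in BCS8 and 2731, 2636 and 3708 in BCS24 (1.78 ± 0.26, adjusted p = 0.00138). A glyceraldehyde-3-phosphate dehydrogenase (HORVU7Hr1G108580), a glycolytic enzyme often used as a reference gene, had 14.8, 17.9 and 19.7 FPKM against 69.6, 78.1 and 56.7 (2.03 ± 0.26, adjusted p = 0.00049). By the rule that chose both genes, no library of 1 accession reached the range of the other. MRL1 (HORVU1Hr1G032610), a pentatricopeptide repeat protein known in Arabidopsis to stabilise the transcript of the large Rubisco subunit, was higher by 1.64 ± 0.41 (adjusted p = 0.0164), and did not pass without BCS8 drought 2 or BCS24 drought 1. A lipoxygenase (HORVU2Hr1G115980), of the enzymes that oxidise fatty acids on the way to jasmonate and other oxylipins, had 1.88, 1.21 and 2.27 FPKM against 6.59, 9.32 and 6.53 (2.12 ± 0.65, adjusted p = 0.036). With the replicate block its adjusted p was 0.0521, and it did not pass in 10 of 26 alternatives, among them the fits without each drought library in turn.

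**Figure D2:**
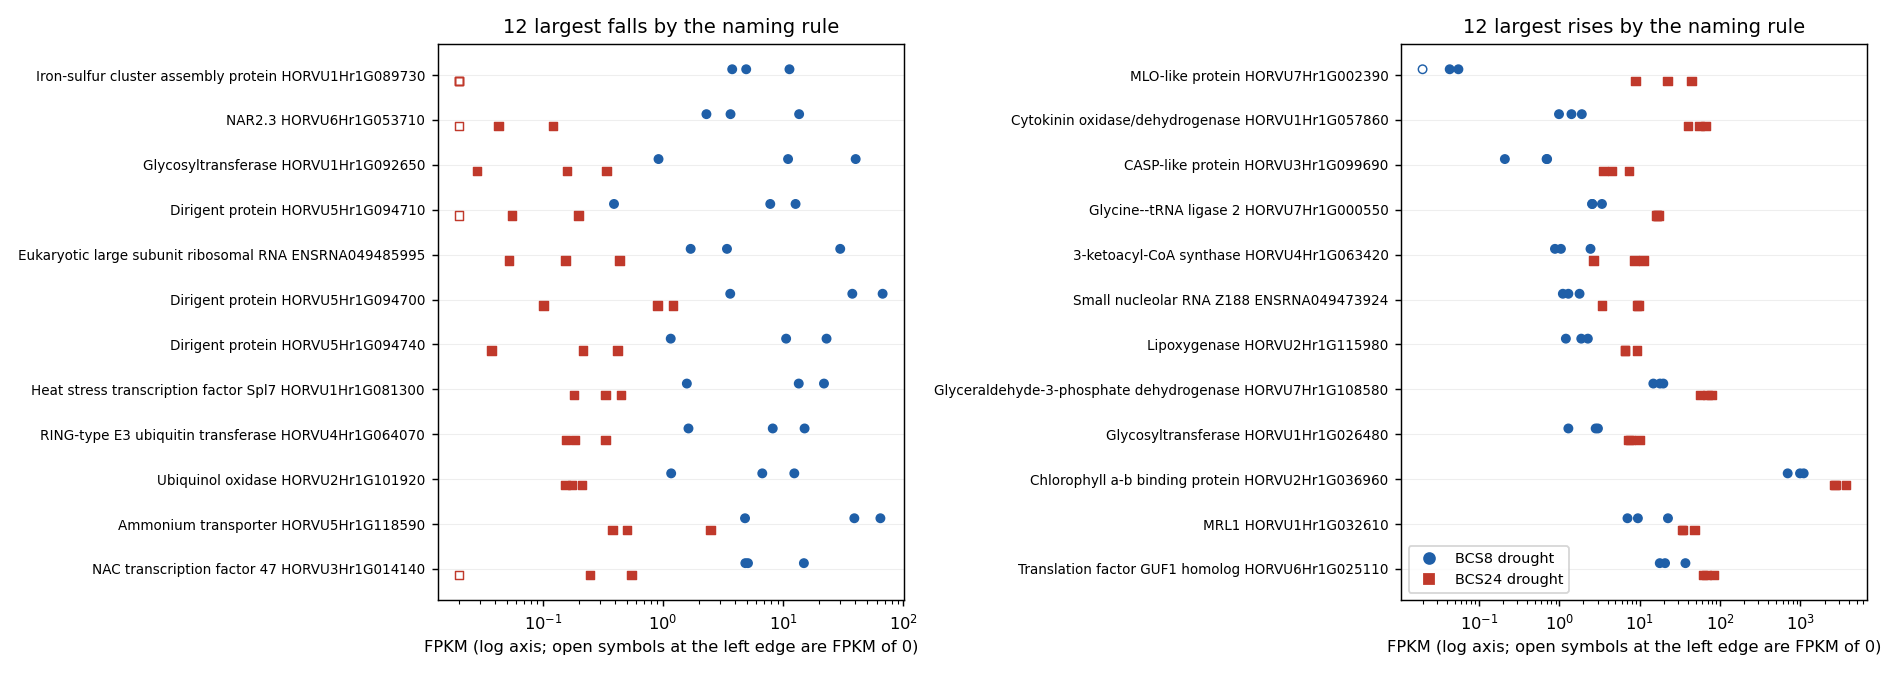
FPKM on a log axis for the 12 largest falls (left) and the 12 largest rises (right) by the naming rule, with 3 blue circles for BCS8 drought and 3 red squares for BCS24 drought per gene, and open symbols for an FPKM of 0. The circles and squares of a gene do not overlap, by the rule that chose it, and in many of the falls 1 circle (BCS8 drought 3) lies well to the left of the other circles.

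Genes were then grouped into 56 lists by the ontology terms or descriptions in the deposited table, 55 of them with tested genes. A list's share past the threshold is to be read against the 27.4% of all tested genes, or 13.3% higher and 14.1% lower. Its counts in other fits are to be read against those of all 17342 tested genes in the same fit. These were 679 higher and 826 lower with the rRNA covariate, and 963 and 1073 without BCS24 drought 1. Without BCS8 drought 2 they were 1192 and 1375, and without BCS24 drought 3 they were 1762 and 1344.

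**Figure D3:**
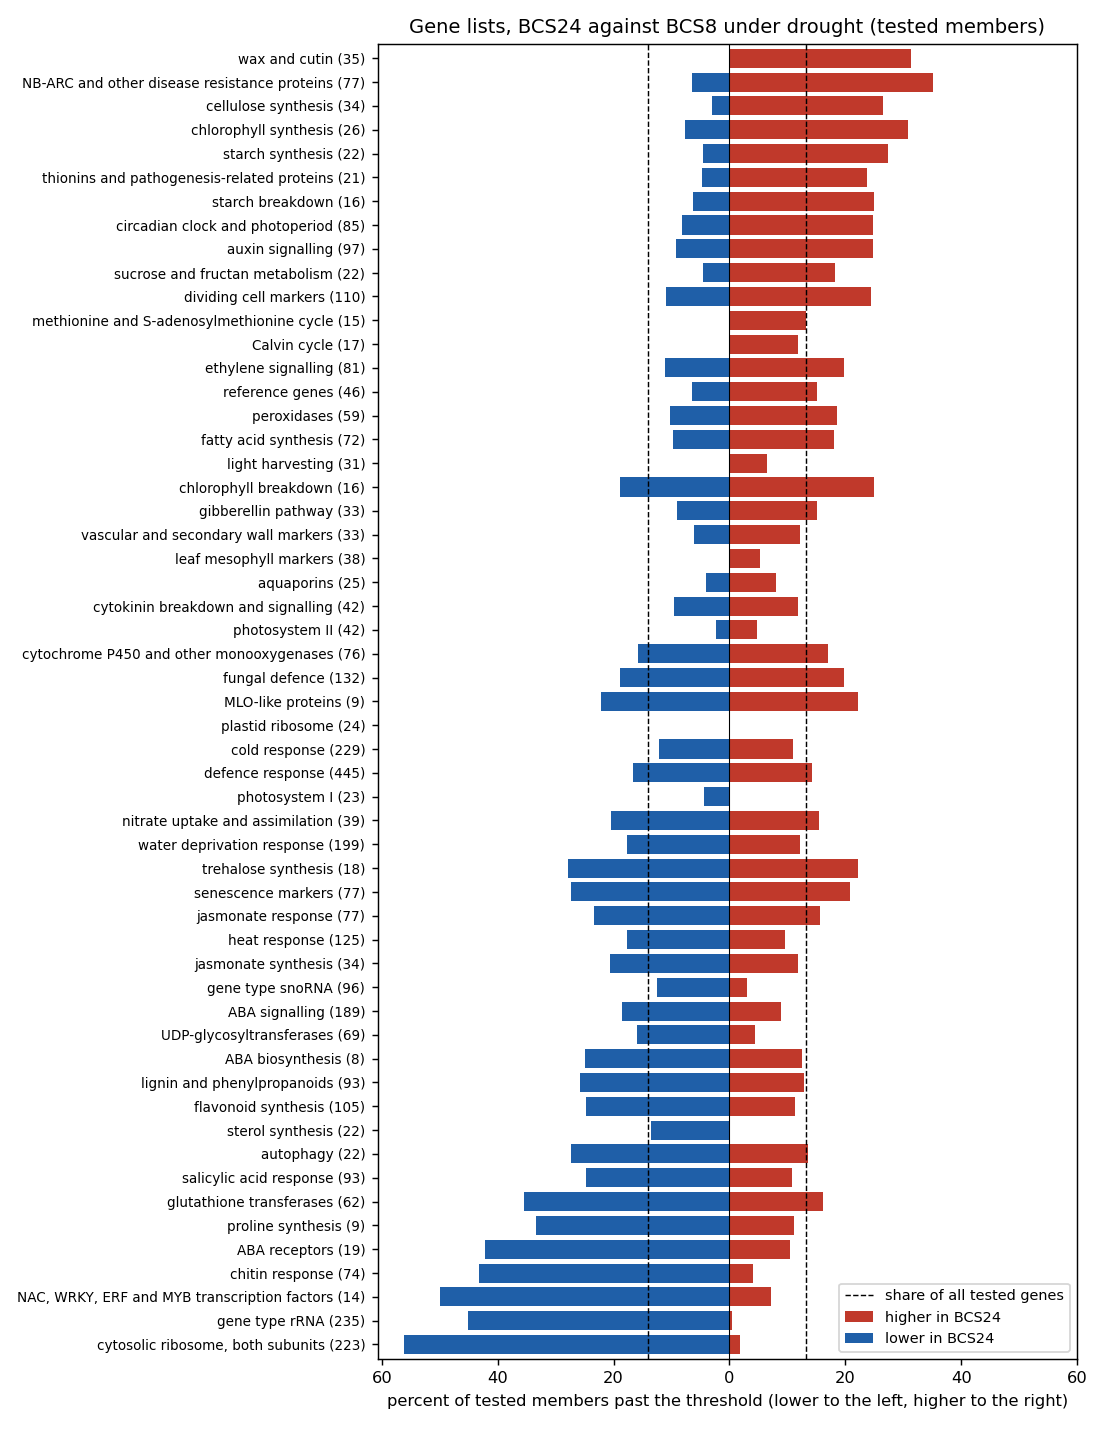
Share of the tested members of each list past the threshold, with members higher in BCS24 in red to the right and members lower in blue to the left, and the number of tested members in parentheses. Dashed lines mark 13.3% and 14.1%, the shares over all tested genes. The longest blue bars belong to the cytosolic ribosome, the transcription factor list, rRNA, the chitin response and the ABA receptors, and the longest red bar to the disease resistance proteins.

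Genes of ABA synthesis and ABA receptors were mostly lower where they passed. Of 8 tested synthesis genes 1 was higher and 2 lower, the 2 being 9-cis-epoxycarotenoid dioxygenases (NCED), the enzymes that make the committed cut toward ABA. HORVU3Hr1G108100, on chromosome 3H (674152812 to 674164162) and picked after its values were seen, had 62.5, 104 and 5.48 FPKM in BCS8 and 0.496, 1.19 and 0.157 in BCS24. The lowest BCS8 library was still above the highest BCS24 library. The log2 fold change was −6.46 ± 1.06 (adjusted p = 0.00255), and −4.59 in control. HORVU5Hr1G008050 had 13.4, 4.31 and 8.35 FPKM against 0.566, 1.07 and 1.02 (−3.23 ± 0.46, adjusted p = 0.00114), with −1.10 in control, and passed in every alternative. Zeaxanthin epoxidase (HORVU2Hr1G078840), which makes the carotenoids upstream, went the other way. It had 157, 132 and 141 FPKM against 230, 248 and 208 (0.74 ± 0.12, adjusted p = 0.00239), with each BCS24 library above each BCS8 library.

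Of the 19 tested ABA receptor genes, 2 were higher and 8 lower under drought (52.6% past the threshold), with a median log2 fold change of −0.20, while 2 were higher and 1 lower in control. HORVU0Hr1G011720, not placed on a chromosome, had 19.6, 30.8 and 3.63 FPKM in BCS8 and 0.0428, 0.0302 and 0.345 in BCS24 (−6.82 ± 1.23, adjusted p = 0.00415). A group of 5 receptor genes picked after their values were seen lies between 124787269 and 125368438 of chromosome 5H, and the models of 3 of them overlap, so that their reads cannot be assigned with certainty. Of these, HORVU5Hr1G023720 had 15, 17.8 and 1.34 FPKM against 0.0454, 0 and 0.297 (−6.47 ± 1.5, adjusted p = 0.0126), and HORVU5Hr1G023740 had 11.5, 12.8 and 1.2 against 0, 0 and 0.47 (−5.59 ± 1.42, adjusted p = 0.0181). BCS8 drought 3 was again the lowest BCS8 library, as it was in 6 of the 8 lower receptors. HORVU4Hr1G054870 had 2.69, 4.6 and 3.62 FPKM against 1.01, 0.954 and 0.248 (−2.22 ± 0.44, adjusted p = 0.00618), with no overlap. HORVU4Hr1G055220 was higher, with 0.609, 0.727 and 0.361 against 1.02, 0.741 and 2.54 (1.42 ± 0.48, adjusted p = 0.0492), but its adjusted p was 0.103 with the replicate block and it missed the threshold in 19 alternatives. Leaving out BCS24 drought 1, 0 receptors were higher and 3 lower, and with the rRNA covariate none passed, against 2 and 8.

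Of 189 genes annotated to ABA signalling, a list that holds receptors too, 17 were higher and 35 lower (27.5%), and of 199 genes of the response to water deprivation 24 were higher and 35 lower (29.6%), with medians of −0.04 and −0.05. The shares past the threshold were near the 27.4% of all genes, with more lower than higher members in each list. These counts were 6 and 16, and 14 and 24, without BCS24 drought 1, and 6 and 8, and 9 and 9, with the rRNA covariate. A gene annotated as a serine/threonine phosphatase of ABA signalling (HORVU7Hr1G029040) had 0, 0 and 0.0234 FPKM in BCS8 and 12, 19.4 and 7.77 in BCS24. Its count ratio was 1475 (exact 95% interval 408 to 12186, covering counting error only), from 2 counts in BCS8. A calcium- and calmodulin-dependent kinase (HORVU2Hr1G054370) had 0.514, 0.607 and 0.664 FPKM against 2.58, 2.2 and 1.81 (1.93 ± 0.22, adjusted p = 0.000214). A serine/threonine kinase of the water deprivation list (HORVU5Hr1G065350) had 4.14, 4.18 and 3.08 against 11.4, 9.29 and 10.2 (1.51 ± 0.17, adjusted p = 0.000205). In both kinases every BCS24 library was above every BCS8 library. A ubiquitin-protein transferase of that list (HORVU2Hr1G091220) had 1.98, 1.27 and 1.23 against 6.09, 4.73 and 7.19 (2.08 ± 0.23, adjusted p = 0.000211), with 0.30 in control. The dehydrin and LEA list held only 2 genes of the deposited table, and neither reached the expression filter. Neither of the 2 tested genes described as protein phosphatase 2C passed. Only 5071 of all tested genes carried a description, so these short lists may miss members of both families. Their counts therefore do not describe either family as a whole.

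Defence genes differed by list. Of 132 genes of defence against fungi 26 were higher and 25 lower (38.6%; median −0.07), and of 21 thionins and pathogenesis-related proteins 5 were higher and 1 lower. With the rRNA covariate the former were 6 and 6, and without BCS24 drought 1 they were 9 and 11. The chitin response list, genes annotated to the cell-wall polymer that plants sense as a sign of fungi, had 3 higher and 32 lower members of 74 (47.3%), with a median of −0.69 and 3 and 7 in control. A chitinase (HORVU3Hr1G059480) had 50.3, 24.7 and 22.4 FPKM in BCS8 and 0.357, 0.602 and 0.402 in BCS24, a log2 fold change of −6.07 ± 0.76 (adjusted p = 0.000472). It passed in every alternative, and its difference in control was −2.50. A kinase with chitin binding (HORVU4Hr1G081590) was lower by −4.21 ± 0.52 (adjusted p = 0.000398). Abundant genes annotated as chitinases and picked after their values were seen followed another order of libraries. HORVU3Hr1G113120 had 256, 1319 and 117 FPKM against 4.2, 9.42 and 2.43 (−6.63 ± 1.32, adjusted p = 0.00653). HORVU3Hr1G113620 had 305, 1090 and 172 against 10.4, 70.2 and 12.7 (−3.99 ± 1.11, adjusted p = 0.0254), and HORVU6Hr1G092630 had 277, 956 and 118 against 15.6, 64.3 and 9.24 (−3.84 ± 1.04, adjusted p = 0.0233). In these 3 genes the library numbered 2 was the highest of each accession, and the accessions did not overlap. The last 2 did not pass without BCS8 drought 2, BCS24 drought 1 or BCS24 drought 3.

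Regulators on the chitin list, these too picked after their values were seen, were lower as well. WRKY3 (HORVU5Hr1G065420), described as a transcriptional repressor of pathogen response, had 25.4, 117 and 1.77 FPKM in BCS8 and 1.03, 1.95 and 0 in BCS24 (−5.50 ± 1.60, adjusted p = 0.03). BCS8 drought 3 fell within the BCS24 range, and the gene did not pass without BCS8 drought 2 or BCS24 drought 1. The 3 neighbouring transcription factor genes on chromosome 4H, HORVU4Hr1G081430, HORVU4Hr1G081440 and HORVU4Hr1G081450, were lower by −3.48 ± 1.07, −4.41 ± 1.08 and −6.51 ± 1.60, and none of them passed without BCS24 drought 1 or BCS24 drought 3. BCS8 drought 3 was the lowest BCS8 library in 28 of the 32 lower members of the list. Without that library 2 were higher and 34 lower, without BCS24 drought 1 the counts were 1 and 10, without BCS8 drought 2 or BCS24 drought 3 they were 2 and 16 in each case, and with the rRNA covariate 0 and 4. Among 14 described NAC, WRKY, ERF and MYB factors 1 was higher and 7 lower (57.1%), with 0 and 1 in control, 1 and 1 without BCS24 drought 1 and 0 and 2 with the rRNA covariate. One of the 7, a NAC factor (HORVU4Hr1G051360), had 6, 3.56 and 6.93 FPKM against 1.66, 1.41 and 1.46 (−1.79 ± 0.29, adjusted p = 0.00237), and 0.64 in control.

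Disease resistance proteins stood the other way. Of 77 tested NB-ARC and other resistance genes, immune receptors that detect pathogen effectors inside the cell, 27 were higher and 5 lower (41.6%), with a median of 0.30. In control 20 were higher and 5 lower. HORVU1Hr1G000900 had 0.00832, 0.00919 and 0 FPKM in BCS8 and 8.33, 7.51 and 9.83 in BCS24 (10.47 ± 0.46, adjusted p = 5.68e-06). HORVU1Hr1G092920 showed the reverse, with 6.12, 5.26 and 4.97 FPKM in BCS8 and 0 counts in BCS24, at least 398-fold lower. Both passed in every alternative. Without BCS24 drought 1 the list held 13 higher and 4 lower genes, without BCS8 drought 2 it held 14 and 4, and with the rRNA covariate 11 and 4.

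The end of chromosome 7H held several of the sharpest differences, and was picked after its values were seen. Between 3 and 6 Mb, 38 genes were tested, of which 6 were higher and 12 lower (47.4%, against 27.4% of all tested genes). As the stretch was chosen with the genes named next in view, and counts them, its share is no separate result. The window from 0 to 20 Mb of 7H held 32 higher and 42 lower of 201 genes (36.8%). Rpg1 (3257541 to 3268163), a receptor-like kinase gene that gives barley resistance to stem rust, had 10.9, 11.4 and 8.34 FPKM in BCS8 and 0.00986, 0 and 0.00485 in BCS24. The log2 fold change was −10.49 ± 0.51 (adjusted p = 3.16e-06), and −10.39 in control. HORVU7Hr1G001490, HORVU7Hr1G001670 (annotated to defence and ADP binding) and HORVU7Hr1G001750 had 0 counts in BCS24 and were at least 188-, 550- and 45.3-fold lower. The MLO-like gene described above (4608055 to 4612598) and HORVU7Hr1G002930 (5504398 to 5510213) were the reverse. HORVU7Hr1G002930 had 0 counts in BCS8 and 6.22, 6.74 and 5.42 FPKM in BCS24, at least 721-fold higher. Each of these 6 genes passed in every alternative. Of the 9 MLO-like genes tested, 2 were higher and 2 lower, and HORVU2Hr1G118780 was the other higher one, with 0.523, 0.528 and 0.653 FPKM against 1.67, 1.91 and 1.47 (1.62 ± 0.17, adjusted p = 0.000117).

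Glutathione transferases, which join glutathione to toxins and oxidised lipids, moved in both directions. Of 62 tested genes 10 were higher and 22 lower (51.6%), with 10 and 5 in control, and 8 and 10 under drought without BCS24 drought 1 and 7 and 4 with the rRNA covariate. HORVU6Hr1G090560 had 0 counts in BCS8 and 33.2, 27.5 and 20.9 FPKM in BCS24, at least 1161-fold higher. HORVU2Hr1G124300 had 0.232, 0.14 and 0.211 FPKM against 8.74, 9.09 and 5.69 (5.28 ± 0.33, adjusted p = 5.68e-06). The accessions stood far apart in both genes, in control as under drought. HORVU5Hr1G118800, picked after its values were seen, had 11.8, 23.1 and 4.56 FPKM against 0.0444, 0.0377 and 0.121 (−7.26 ± 1.33, adjusted p = 0.00444). HORVU2Hr1G122270, picked likewise, had 6.05, 6.12 and 0.203 against 0, 0 and 0.0364 (−8.06 ± 1.80, adjusted p = 0.0108) and did not pass without BCS24 drought 1. BCS8 drought 3 was the lowest BCS8 library in 18 of the 22 lower members.

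Genes of phenolic metabolism that passed were more often lower than higher in BCS24. Of 93 lignin and phenylpropanoid genes 12 were higher and 24 lower (38.7%), and of 105 flavonoid genes 12 were higher and 26 lower (36.2%), with medians of −0.29 and −0.30. In control they were 5 and 10, and 16 and 11, with medians of −0.23 and −0.12. In the fit without BCS24 drought 1 the counts were 5 and 14, and 10 and 13, and with the rRNA covariate 2 and 13, and 9 and 10. A phenylalanine ammonia-lyase (HORVU2Hr1G089540), which opens the phenylpropanoid pathway, had 16.4, 23.7 and 17.5 FPKM against 3.73, 4.42 and 5.78 (−1.97 ± 0.30, adjusted p = 0.00163). A cinnamyl-alcohol dehydrogenase (HORVU5Hr1G122130), which makes lignin monomers, was lower by −2.89 ± 0.35 (adjusted p = 0.000353). In neither gene did the accessions overlap. A pair of flavonoid glucosyltransferases on chromosome 3H went up steeply. HORVU3Hr1G110550 had 0, 0.0264 and 0 FPKM in BCS8 and 22, 19.7 and 20.6 in BCS24, and HORVU3Hr1G110190 had 0.0134, 0.0334 and 0 against 22.1, 18.5 and 18.5 (10.20 ± 0.55, adjusted p = 4.16e-06).

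Jasmonate, a hormone of wounding and defence, is made from oxidised fatty acids. Of 34 synthesis genes 4 were higher and 7 lower (32.4%), and of 77 response genes 12 were higher and 18 lower (39.0%). The synthesis median was −0.11, against −0.42 in control, where 3 were higher and 3 lower. Response genes had a median of −0.12, with 4 higher and 9 lower in control. Under drought the counts were 2 and 2, and 6 and 7, without BCS24 drought 1, and 2 and 2, and 2 and 5, with the rRNA covariate. Allene oxide synthase (HORVU5Hr1G098090), the first enzyme on the jasmonate branch, had 6.65, 5.6 and 9.58 FPKM in BCS8 and 1.65, 1.79 and 1.48 in BCS24. The 2 sets of values lay well apart. Its log2 fold change was −2.09 ± 0.22 (adjusted p = 0.000141), against −0.71 in control, and it passed in every alternative. A jasmonate methyltransferase (HORVU3Hr1G100190), which makes the volatile methyl ester, had 47.1, 42.5 and 5.92 FPKM against 0.164, 0.125 and 0.837 (−6.27 ± 1.35, adjusted p = 0.00936).

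The starch genes that passed were mostly higher in BCS24. Among 16 tested genes of starch breakdown 4 were higher and 1 lower (31.2%), and among 22 of starch synthesis 6 were higher and 1 lower (31.8%), while in control 0 and 4 and 0 and 3 were higher and lower. The shares past the threshold were near the 27.4% of all genes, while the share higher was 25.0% and 27.3%, against 13.3% of all genes. Of the breakdown genes 9 had a positive and 7 a negative log2 fold change, and of the synthesis genes 17 and 5. With the rRNA covariate 2 were higher and 0 lower in breakdown, and 2 and 1 in synthesis. Phosphoglucan, water dikinase (HORVU7Hr1G008070), which phosphorylates starch granules and so opens them to amylases, had 15.8, 12.1 and 13.7 FPKM in BCS8 and 24.6, 21.7 and 24.3 in BCS24 (0.83 ± 0.12, adjusted p = 0.000994). The α-glucan, water dikinase acting before it (HORVU7Hr1G048330, picked after its values were seen) had 106, 67.4 and 114 against 183, 160 and 145 (0.83 ± 0.20, adjusted p = 0.0147), and did not pass without BCS24 drought 1. Each BCS24 library exceeded each BCS8 library in both dikinases. An α-amylase (HORVU3Hr1G067620) was higher by 0.76 ± 0.13 (adjusted p = 0.00352). For synthesis, an ADP-glucose pyrophosphorylase gene (HORVU3Hr1G023370), whose enzyme makes the glucosyl donor of starch, had 4.1, 2.75 and 2.57 FPKM against 9.23, 8.43 and 8.91 (1.56 ± 0.23, adjusted p = 0.00126). The debranching enzyme ISA1 (HORVU7Hr1G051710), picked likewise, was higher by 1.34 ± 0.26 (adjusted p = 0.00619), with −0.44 in control. A fructokinase (HORVU5Hr1G076230) was the 1 lower member, by −1.07 ± 0.17 (adjusted p = 0.00215).

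Sugars that act as signals and nitrogen genes were mixed. Of 18 trehalose genes 4 were higher and 5 lower (50.0%), with 1 and 2 without BCS24 drought 1 and 0 and 2 with the rRNA covariate. The trehalose-phosphatases HORVU6Hr1G063310 and HORVU1Hr1G053770, which remove the sugar signal trehalose 6-phosphate, were lower by −2.0 ± 0.25 (adjusted p = 0.000387) and −1.86 ± 0.31 (adjusted p = 0.00274). The first had 11.3, 13.8 and 12.4 FPKM against 2.79, 2.32 and 3.76. HvSnRK1gamma (HORVU2Hr1G069060), a regulatory subunit of the energy-sensing kinase SnRK1, was higher by 0.87 ± 0.19 (adjusted p = 0.0108), and was picked after its values were seen like the next pair of genes. Of 39 genes of nitrate uptake and assimilation 6 were higher and 8 lower (35.9%), with 5 and 3 without BCS24 drought 1 and 1 and 2 with the rRNA covariate. A transporter of the NRT1/PTR family (HORVU6Hr1G070450) had 3.85, 6.41 and 6.36 FPKM against 0.0479, 0.443 and 0.152 (−4.58 ± 0.96, adjusted p = 0.00814). The cytosolic glutamine synthetase GS1a (HORVU6Hr1G074030), which fixes ammonium into glutamine, had 56, 23.2 and 37.3 against 20.1, 14.1 and 19.2 (−1.06 ± 0.32, adjusted p = 0.0333), without overlap, and missed the threshold in 8 alternatives, among them the fit without BCS24 drought 1.

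Few photosynthesis genes passed the test. Of 31 light-harvesting genes 28 had a positive log2 fold change, with a median of 0.83, and 2 passed (6.45%), both higher. In control the median was 1.22 and 11 passed, all higher. With the replicate block 4 were higher and 1 lower under drought. Without BCS24 drought 2, the lowest of the BCS24 libraries in the summed light-harvesting FPKM, 12 were higher and 1 lower under drought. The list's near-identical copies may share reads. Summed FPKM of the leaf mesophyll list (38 tested genes, of light harvesting and the small Rubisco subunit) ran from 29628 to 42794 in BCS8 and from 42485 to 72846 in BCS24 (exact 2-sided permutation p = 0.2). Of 17 Calvin cycle genes 16 were positive (median 0.45) and 2 passed, both higher, with 0 without BCS8 drought 2 or BCS24 drought 1 and 0 with the rRNA covariate. Phosphoribulokinase (HORVU6Hr1G067660), which makes the CO2 acceptor, had 252, 180 and 182 FPKM against 377, 291 and 407 (0.88 ± 0.21, adjusted p = 0.0141). Of 23 photosystem I genes 1 was lower (6 positive and 17 negative signs, median −0.10), and of 42 photosystem II genes 2 were higher and 1 lower (22 positive and 20 negative signs, median 0.06). With the replicate block these counts were 1 higher and 2 lower, and 3 and 2.

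Chlorophyll synthesis held 8 higher and 2 lower of 26 genes (38.5%; median 0.49), with 1 and 4 in control. With the rRNA covariate 0 were higher and 1 lower. Chlorophyllide a oxygenase (fch2, HORVU0Hr1G007360), which makes chlorophyll b, had 175, 115 and 123 FPKM in BCS8 and 315, 259 and 379 in BCS24 (1.28 ± 0.24, adjusted p = 0.00473), with every BCS24 library higher. Magnesium chelatase, the first enzyme of the chlorophyll branch, was represented by HORVU2Hr1G023540 (2.49 ± 0.76), HORVU2Hr1G023560 (1.34 ± 0.41) and HORVU5Hr1G111310 (0.74 ± 0.20). The cyclase that follows (HORVU3Hr1G039930) was higher by 0.71 ± 0.23. These 4 genes, of which all but HORVU5Hr1G111310 were picked after their values were seen, lost their call without BCS8 drought 2, BCS8 drought 3 or BCS24 drought 1. Without BCS8 drought 3 the list held 1 higher and 1 lower gene, without BCS24 drought 1 or BCS8 drought 2 it held 1 and 0 in each case, and without BCS24 drought 3 2 and 0. Of 16 chlorophyll breakdown genes 4 were higher and 3 lower.

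Wax and cutin seal the leaf surface against water loss. Of 35 tested genes for their synthesis 11 were higher and 0 lower (31.4%), 27 had a positive log2 fold change and the median was 0.37. In control 7 were higher and 1 lower, and with the rRNA covariate 1 was higher and 0 lower under drought. The 3-ketoacyl-CoA synthase HORVU4Hr1G063420, which lengthens fatty acids for wax, had 2.45, 0.886 and 1.05 FPKM in BCS8 and 8.68, 2.67 and 11.1 in BCS24 (2.42 ± 0.52, adjusted p = 0.00906). The ketoacyl-CoA synthase named Fdh (HORVU4Hr1G076940) had 8.92, 2.96 and 2.78 against 27.9, 7.17 and 30 (2.22 ± 0.58, adjusted p = 0.0206), so that BCS24 drought 2 lay below BCS8 drought 1. TSC13 (HORVU3Hr1G013790), the reductase of the same elongation cycle, differed little but evenly, with 65.1, 63.4 and 63.9 FPKM against 86.8, 79.5 and 88.8 (0.48 ± 0.09, adjusted p = 0.00465). Long chain acyl-CoA synthetase 2 (HORVU5Hr1G099350) and glycerol-3-phosphate acyltransferase 1 (HORVU3Hr1G056830), which activate and place fatty acids for cutin, were higher by 1.86 ± 0.44 and 1.73 ± 0.51, with overlapping libraries. These and Fdh were picked after their values were seen, and none of the 3 passed without BCS8 drought 2 or BCS24 drought 1. Without BCS24 drought 1 or BCS8 drought 2, 3 members were higher in each case, without BCS8 drought 3 there were 5, and without BCS24 drought 2, the lowest BCS24 library in these genes, 13 were higher and 4 lower.

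The cytosolic ribosome was the list with the largest share of lower genes. Of 223 tested proteins of its subunits 4 were higher and 125 lower (57.8%), and 202 had a negative log2 fold change, with a median of −0.53. The difference was there in control too, with 3 higher and 117 lower. A protein of the small subunit (HORVU5Hr1G098740) had 69.8, 106 and 86.5 FPKM in BCS8 and 40, 46.6 and 41.3 in BCS24 (−0.96 ± 0.15, adjusted p = 0.00219), with no overlap, and HORVU4Hr1G037800 was lower by −0.80 ± 0.12 (adjusted p = 0.00177). A pair of genes annotated both to kinesins and to the ribosome were nearly without reads in BCS24. HORVU0Hr1G003790 had 25, 30.7 and 31.5 FPKM against 0, 0 and 0.0394, a count ratio of 1674 (exact 95% interval 573 to 8122), and HORVU0Hr1G030060 had a ratio of 827 (229 to 6838). Without BCS24 drought 1, 2 members were higher and 44 lower, without BCS8 drought 2 3 and 53, without BCS24 drought 3 4 and 74, and with the rRNA covariate 1 and 49. Of 24 plastid ribosome genes 0 passed under drought and 10, all lower, in control. Several of these proteins are encoded by near-identical genes, among which reads may be shared.

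Ribosomal RNA genes and small nucleolar RNAs were also measured, although the libraries were selected for poly(A). Of 235 rRNA genes 1 was higher and 106 lower (45.5%), with a median of −1.48, and BCS8 drought 3 was the lowest BCS8 library in 96 of the 106. In control 1 was higher and 0 lower, with a median of 0.86. The call count fell to 15 lower without BCS8 drought 1, 11 without BCS8 drought 2, 4 without BCS24 drought 1 and 9 without BCS24 drought 3, and was 130 without BCS8 drought 3. These copies are close to identical, so no single one can be assigned its reads with certainty. The large subunit gene ENSRNA049485995, among the 12 largest falls, had 3.41, 1.7 and 29.9 FPKM against 0.434, 0.154 and 0.0524 (−5.62 ± 1.70, adjusted p = 0.0341). Its value rested on BCS8 drought 3, without which it did not pass, and its adjusted p with the replicate block was 0.0835. Of 96 small nucleolar RNAs, guides for rRNA modification, 3 were higher and 12 lower (15.6%).

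Growth hormones and other groups gave smaller leanings. Auxin signalling had 24 higher and 9 lower of 97 genes (34.0%), the circadian clock and photoperiod list 21 and 7 of 85 (32.9%), cellulose synthesis 9 and 1 of 34 (29.4%) and ethylene signalling 16 and 9 of 81 (30.9%). Omitting BCS24 drought 1 these were 12 and 6, 10 and 3, 2 and 0, and 7 and 6, and with the rRNA covariate 6 and 5, 5 and 3, 1 and 0, and 4 and 4. Among 33 gibberellin genes 5 were higher and 3 lower, led by the ent-kaurene synthase KSL1 (HORVU2Hr1G099480) with 0.943, 0.746 and 1.84 FPKM against 15.1, 11.8 and 11.9 (3.50 ± 0.35, adjusted p = 9.75e-05). Of 42 cytokinin genes 5 were higher and 4 lower, 1 of the 4 being a histidine phosphotransfer protein (HORVU4Hr1G051390) with 7.78, 9.13 and 8.85 FPKM in BCS8 and 0 counts in BCS24, at least 95.4-fold lower. A monooxygenase annotated to brassinosteroid synthesis (HORVU2Hr1G095080) was at 0 counts in BCS8 and at 10.3, 9.92 and 12.1 FPKM in BCS24, at least 428-fold higher. Markers of other cell states were summed as well. Summed FPKM of the dividing cell list was 1412 ± 32 (SD, n = 3) in BCS8 and 1252 ± 64.9 in BCS24, and that of the senescence list 2309 ± 69.2 and 2820 ± 110 (exact 2-sided permutation p = 0.1 for each). Among their single genes 27 of 110 dividing cell genes were higher and 12 lower, against the direction of the sum, and of 77 senescence genes 16 were higher and 21 lower. The vascular list summed to values that overlapped (exact 2-sided permutation p = 0.5).

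The same contrast in the control libraries shows which differences the accessions had without drought. No library is shared between the contrasts, though the spread was estimated from all of them. In control 3317 genes passed (19.1%), 1731 higher (9.98%) and 1586 lower (9.15%). Of the genes past the threshold under drought, 2045 also passed in control in the same direction, 1154 higher and 891 lower, which is 43.1% of the drought calls and 61.7% of the control calls. The sign was the same in control for 4299 of the 4749 (90.5%), against 74.7% of all tested genes. Genes higher under drought had a median of 0.70 under drought and 0.52 in control, and genes lower under drought −1.22 and −0.60.

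**Figure D4:**
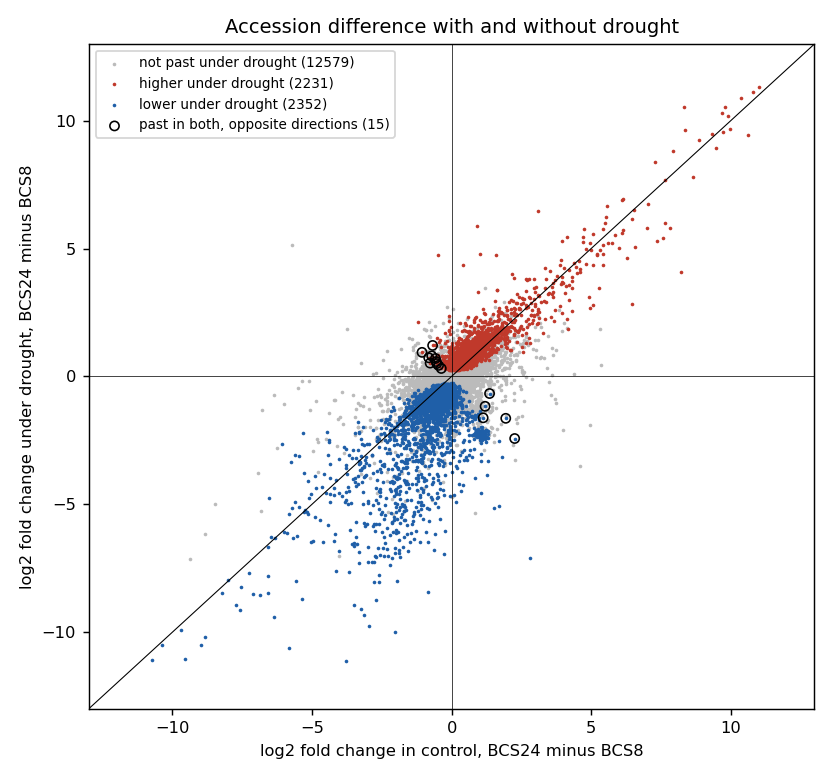
Log2 fold change (BCS24 minus BCS8) in control across and under drought upward for the 17162 genes with counts in all 4 groups, red and blue where the gene passed under drought and ringed where it passed in both with opposite directions. Most coloured points lie to the lower left and upper right of the zero lines, and the line marks equal differences.

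A further 2689 genes passed under drought and not in control (1143 higher and 1546 lower), which does not show that their differences changed. The test of that change is the interaction, drought difference minus control difference, and 0 of 17342 genes passed it (0.0%) in edgeR at an adjusted p of 0.05. At an unadjusted p of 0.05, 2166 did (12.5%). By other tools 629 genes passed in DESeq2 (212 with a larger BCS24 side under drought and 417 with a smaller one), 1 in limma voom, 14 on log2(FPKM + 1) and 1 on log2(FPKM + 0.1). Without BCS8 drought 3 31 genes passed in edgeR, without BCS8 control 3 there were 4, and without BCS8 drought 1 or BCS8 drought 2 there was 1 in each case. The smallest adjusted p in edgeR was 0.0604, for HORVU7Hr1G037180, a transcription factor annotated to osmotic stress and water deprivation. It had 31.1, 23.5 and 24.4 FPKM in BCS8 drought and 9.8, 10.9 and 12.7 in BCS24 drought (−1.17 ± 0.19, adjusted p = 0.00232), and in control 6.22, 6.65 and 8.69 against 14.3, 16.9 and 18.9 (1.20, adjusted p = 0.00221). The accessions were thus ordered oppositely in the 2 conditions, with no overlap in either.

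In all, 15 genes passed in both contrasts with opposite directions, 10 of them higher in BCS24 under drought and 5 lower. Several carry carbohydrate annotations, as picked after their values were seen. The glucanotransferase DPE2 (HORVU2Hr1G021700), which converts maltose from starch in the cytosol, had 20.2, 17.5 and 20 FPKM against 31.8, 25.5 and 32.3 under drought (0.70 ± 0.12, adjusted p = 0.00382), and −0.58 in control (interaction adjusted p = 0.107). An α-1,4 glucan phosphorylase (HORVU3Hr1G085380) had 20.1, 13.4 and 13.7 against 42.8, 27.8 and 33.5 (1.21 ± 0.21, adjusted p = 0.00315), and −0.68 in control. In both genes each BCS24 drought library was above each BCS8 drought library. Glucose-6-phosphate isomerase (HORVU5Hr1G069850, 0.58 ± 0.15) and UTP–glucose-1-phosphate uridylyltransferase (HORVU5Hr1G087810, 0.31 ± 0.09) were higher under drought and lower in control, by −0.55 and −0.37. HORVU4Hr1G052270, annotated to polysaccharide breakdown among other terms, ran the same way (0.52 ± 0.16, and −0.77 in control). HORVU2Hr1G109120, annotated to carbohydrate storage and to fructan beta-fructosidase activity, ran the other way (−1.64 ± 0.5, and 1.94 in control). The methionine synthase HvMS (HORVU5Hr1G006780), which supplies methionine for methylation and ethylene, had 978, 748 and 972 FPKM against 1607, 1553 and 1125 (0.73 ± 0.24, adjusted p = 0.0448), with −0.82 in control. Its adjusted p under drought was 0.0559 with the replicate block, and it missed the threshold in 17 alternatives. Of 15 genes of the methionine cycle 2 were higher and 0 lower under drought (13.3%), and 1 and 5 in control.

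**Figure D5:**
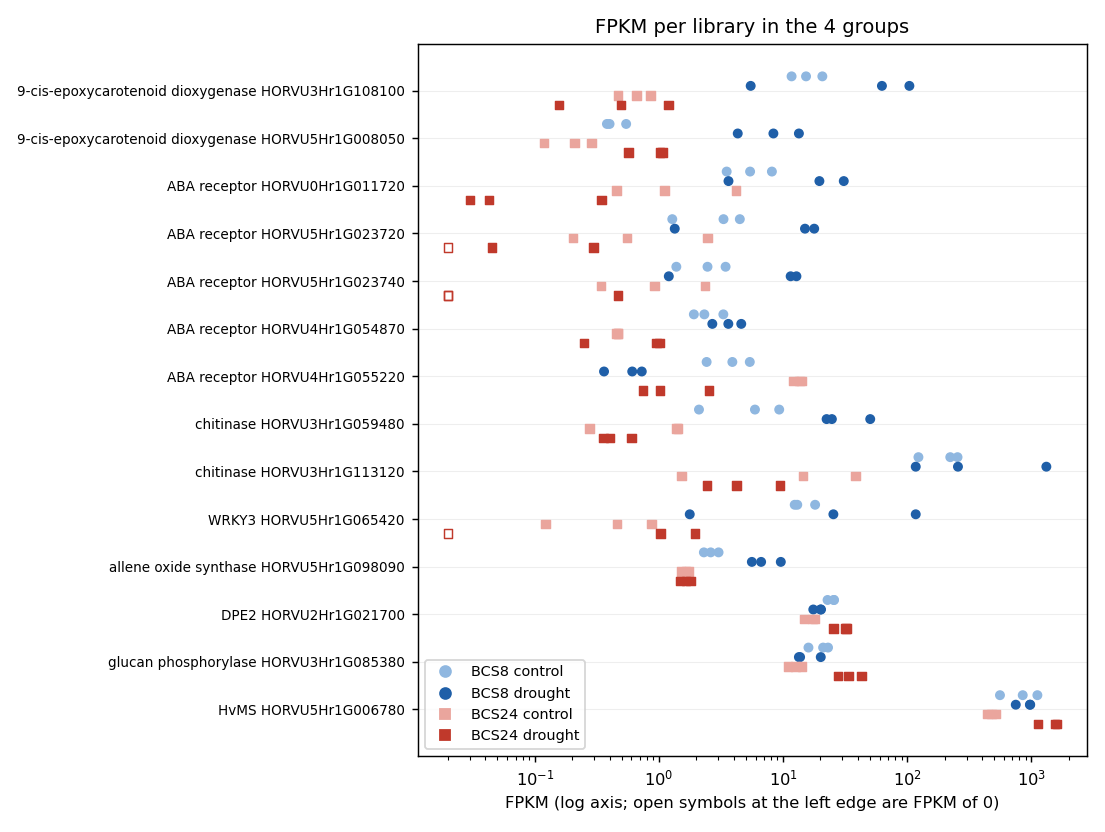
FPKM on a log axis in each of the 12 libraries for 14 genes named in the text, with light circles for BCS8 control, dark circles for BCS8 drought, light squares for BCS24 control and dark squares for BCS24 drought, and open symbols for 0. In the carotenoid dioxygenases and receptors the dark circles lie to the right of the dark squares, except in HORVU4Hr1G055220, where they lie to the left, and in DPE2, the glucan phosphorylase and HvMS the squares of a condition lie left of its circles in control and right of them under drought.

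Genes read in 1 accession and absent from the counts of the other were the extreme of the comparison. Under drought 63 tested genes had 0 counts in all 3 BCS8 libraries, of which 59 passed, and 77 had 0 counts in all 3 BCS24 libraries, of which 72 passed. In control 41 of the 63 and 56 of the 77 had 0 counts in that accession as well. With at most 3 counts in place of 0 there were 76 and 96. Such genes entered the test mostly through libraries of the other accession, which had to reach 1 FPKM. How many of them passed, and their FPKM in the other accession, thus follow largely from the expression filter. The mean FPKM in the other accession had a median of 1.97 (0.369 to 27.2) for genes at 0 in BCS8 and 3.54 (0.701 to 40.6) for those at 0 in BCS24. Some of these genes were uneven between libraries of 1 group. HORVU3Hr1G069010, at 0 in BCS24 drought, had 0, 0 and 25.6 FPKM in BCS8 drought. HORVU1Hr1G046610, at 0 in BCS24 drought too, had 0, 0 and 5.25 FPKM in BCS24 control. A gene annotated to ubiquitin-dependent breakdown (HORVU6Hr1G010420) had 23.1, 31.2 and 34.7 FPKM in BCS8 and 0 counts in BCS24, at least 825-fold lower. A kinase annotated to defence (HORVU2Hr1G125210) was at 0 in BCS8 and at 15.7, 18.9 and 14.4 in BCS24, at least 975-fold higher, and an ABC-type transporter gene (HORVU5Hr1G022260) at 22.7, 24.8 and 16.5, at least 415-fold higher. These 3, picked after their values were seen like the other genes of the paragraph, passed in every alternative.

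Some of these genes are neighbours. A run of 6 small nucleolar RNA genes between 577399804 and 577402850 of chromosome 4H had 0 counts in BCS24, among them SNORD25 (ENSRNA049484147) with 2.42, 2.25 and 2.11 FPKM in BCS8, at least 4.52-fold lower. HORVU7Hr1G056310 and HORVU7Hr1G056320, next to each other on 7H, were at 0 in BCS24 and at least 250- and 46.3-fold lower. The ubiquitin ligase genes HORVU3Hr1G022220 and HORVU3Hr1G022250 were at 0 in BCS8 and at least 30.4- and 16.6-fold higher. HORVU7Hr1G058810 (260959511 to 260959824) was at 0 in BCS8 and at 1.95, 2.23 and 3.41 FPKM in BCS24, while HORVU7Hr1G058820 (260961069 to 260961897) beside it was at 0.709, 2.82 and 0.856 in BCS8 and at 0 in BCS24.

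Whole chromosomes had similar shares of genes past the threshold, while shorter windows differed more, and evenness was not tested. The share of tested genes past the threshold was 25.5% on chromosome 6H, 29.3% on 7H and between these values on the other 5 chromosomes, with 25.3% among genes not placed. None of 29 plastid genes and 2 of 8 mitochondrial genes passed. Among 222 windows of 20 Mb with at least 20 tested genes the share ran from 3.33% (1 of 30 genes, 5H from 260 to 280 Mb) to 48.6% (18 of 37, 7H from 240 to 260 Mb), with a median of 27.0%.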

How the data were processed

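Leaf total RNA was poly(A)-selected and sequenced as paired, strand-marked libraries, per the labels' protocols. The deposited table gives read counts and FPKM values per gene. The authors' tools included StringTie 2.1.6, DESeq2 and edgeR, per the submitters' processing notes. The FPKM values were normalized by the authors to gene length and library size. Neither the genome build nor the treatment of reads shared by genes is stated in these sources.

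The counts were tested with edgeR 4.0.16 (R 4.3.3; TMM scaling, quasi-likelihood F test, 12 libraries, 1 coefficient per group, 8 residual degrees of freedom), with Benjamini-Hochberg adjustment over 17342 genes and a threshold of 0.05. Its common dispersion was 0.0913. The SE of a log2 fold change is that change divided by the square root of F. FPKM values served for the expression filter, the levels and the overlap of libraries. Exact permutation tests used scipy 1.17.1, and a gene at 0 counts was given a bound from 3 counts per library. The test was checked on simulated data. Alternatives were DESeq2 1.42.0, limma 3.58.1 (voom, or log2 FPKM with a pseudocount of 1 or 0.1), other filters, replicate blocks, an rRNA covariate or removal, the drought libraries alone, and each library left out. Library totals ran from 49553836 to 61212440 counts.

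Deviations from the group means correlated between same-numbered drought libraries of the accessions at r = 0.143, 0.267 and 0.185 across genes. As all were above 0.1, the block treats the drought libraries as paired by number. Differently numbered drought libraries gave −0.198 to 0.00371. Same-numbered control libraries of the accessions gave −0.145, −0.00821 and 0.216, and BCS8 control 2 and BCS8 drought 3 reached 0.501. An r above 0.1 therefore does not establish pairs. This pairing comes from the data, not from the labels, and was not tested.

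Genes named are the 12 largest differences each way with a usable description, and up to 2 per list by smallest p. The smallest interaction p-values and genes said to be picked after their values were seen were added. The members and lists were chosen with earlier results of these data known.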

Additional observations from a re-analysis of the deposited data

How the results depend on the processing

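Of 17342 tested genes, 4749 passed under drought with all libraries. The count was 1855 with the drought libraries alone, 2567 with the replicate block in those libraries alone, 1505 with the rRNA share as a covariate, and 2036 to 5191 over the fits that left out 1 library each. With the replicate block for the drought libraries in the fit of 12 it was 5715, and with the block over all 12 it was 4601. In the fit of 12 with the drought block the adjusted p missed the threshold for 4 named genes. These were ENSRNA049485995, HORVU2Hr1G115980, HORVU4Hr1G055220 and HORVU5Hr1G006780, and no other of the 156 named genes that had passed. In control the 3317 genes became 2136 with the rRNA covariate and 1402 to 3792 with 1 library left out. The interaction count of 0 became 629 in DESeq2, 1 in limma voom, 14 on log2(FPKM + 1), 1 on log2(FPKM + 0.1), and 0 to 31 with 1 library left out. The cause of these shifts was not tested. Fits with fewer libraries also have fewer residual degrees of freedom, and the part of this in the shifts was not tested either. Other normalizations, filters and the removal of rRNA genes kept each count within 1.5 times of its value.

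For the 157 named genes under the alternatives, 3712 of 4062 values kept direction and side of the threshold, 348 lost the threshold, 1 gained it and 1 lost its direction. The last was HORVU6Hr1G000660, at 0 on the log2 scale without BCS24 drought 1. Many of the losses came in fits that left out 1 library, which also have fewer residual degrees of freedom.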

Other observations

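HORVU6Hr1G000660, picked after its values were seen, was read or not read in a way that cut across the groups. Its FPKM was 0 in BCS8 drought 1, 2 and 3, and 38.4, 0 and 0 in BCS24 drought 1, 2 and 3. In the control libraries it was 48.5, 49.6 and 0 in BCS8 and 0, 0 and 47.1 in BCS24. The drought difference did not pass in edgeR (adjusted p = 0.173).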
